A study of Mus musculus with 6 samples.

Results

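Imprinted genes were followed in bulk RNA-seq of the mouse pituitary gland, the endocrine organ below the brain. The list holds 35 genes out of 16736 rows of the deposited count table. Its members were chosen by symbol, as genes known to be imprinted that have a row in the table, and the list was drawn up with earlier results of the same comparison known. Counts of called members are therefore a description and carry no weight of their own. The 6 libraries came from pituitaries of male mice, 3 labelled HFD and 3 labelled RD, from polyadenylated RNA. Mice were fasted for 16 h and then fed for 4 h before collection, which HFD and RD mice share. The abbreviations are not spelled out in the labels, and the title of the series places the work in obesity and fatty liver disease. Strain, age, time on the diet and whether a library is a single animal are not stated. The p-values set the difference between HFD and RD against how far libraries of a group lie apart, and that spread may therefore be technical only.

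Imprinted genes are transcribed mainly from the allele inherited from a given parent. They lie in clusters, or domains, in which a control region carries DNA methylation set in the egg or the sperm, and neighbours in a domain can be expressed from opposite parental alleles. Many of them act on growth, placental function, hormone signalling and feeding, and several are abundant in endocrine cells. Gene counts do not separate the alleles, so the parental allele given for each gene is background from mouse genetics. For some members it holds in certain tissues only (UBE3A and IGF2R are examples, as is GRB10).

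Totals were 14185372 to 14384933 counts in the HFD libraries and 15702214 to 18111345 counts in the RD libraries. Of 13873 genes tested with edgeR's quasi-likelihood test, 10.5% had an adjusted p below 0.05 and are referred to as called. A share of 5.87% was called higher and 4.61% lower in HFD. The gland's hormone and subunit genes GH1, PRL, POMC, TSHB, CGA, LHB and FSHB were all present, 2 of them called higher and 4 lower. Their sum was 58322 to 65152 CPM (counts scaled to library size with the TMM factors) in HFD, against 85057 to 95537 CPM in RD. GH1 made up most of that sum in every library, at 36586.8 to 39525.5 CPM in HFD and 58924.5 to 71593.5 CPM in RD. The lower sum in HFD therefore says little about the other hormone genes. Of 34 members with a single row, 27 passed the filter on low counts. Among these 27, 3 were called higher in HFD (NNAT, BLCAP and PON3), 4 were called lower (PEG10, ASB4, PLAGL1 and IGF2R) and 20 were not called. The HFD and RD libraries did not overlap for 12 of the 27, against 32.5% of all tested genes. The median log2(HFD/RD) of the 27 was -0.017, and that of all tested genes was -0.0023.

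**Figure D1:**
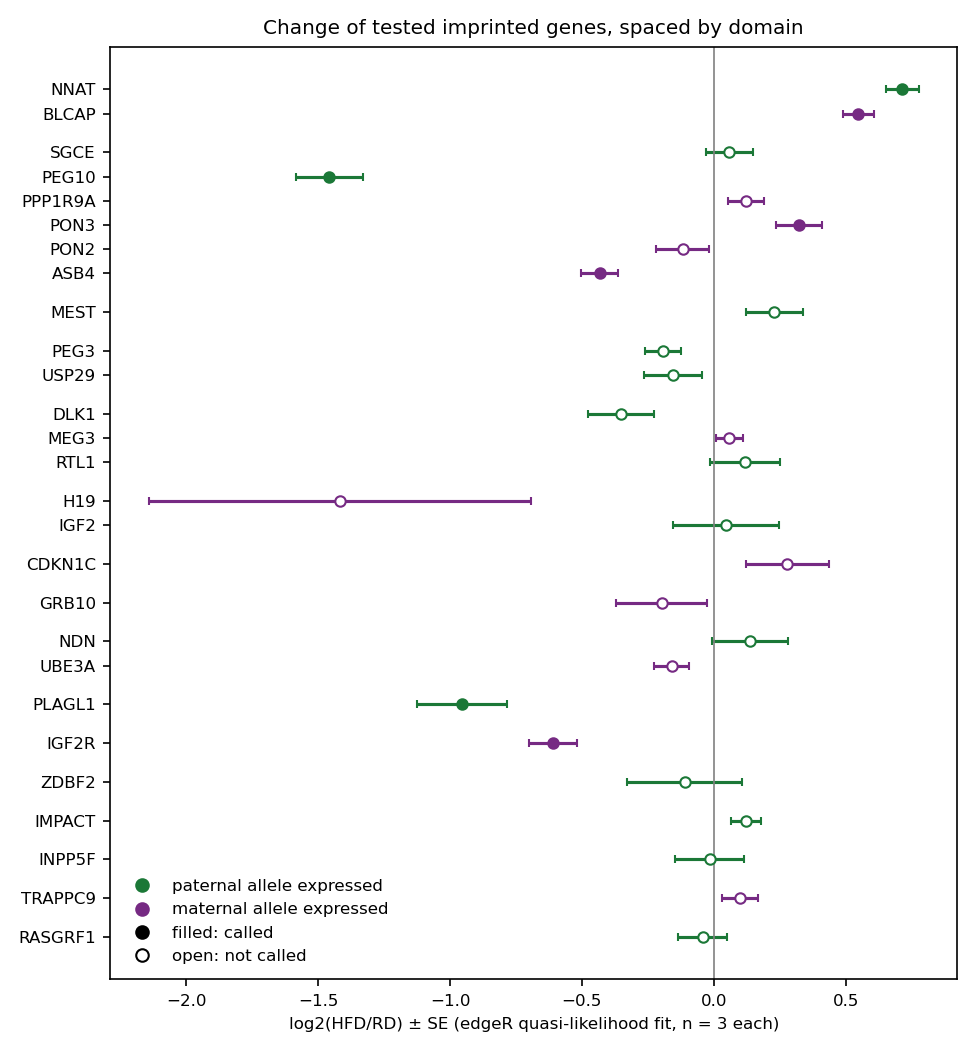
Change of the 27 tested imprinted genes with a single row, as log2(HFD/RD) with its standard error (edgeR, n = 3 each), in groups by domain; colour gives the parental allele and filled points were called. NNAT and BLCAP lie at 0.71 and 0.55, PEG10 at -1.46, PLAGL1 at -0.95 and IGF2R at -0.61, and H19, which was not called, has the widest error.

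The members spanned a wide range of levels. Per kilobase of exon, NNAT was the most abundant at 1808 CPM per kb in HFD and 1103 CPM per kb in RD. Exon length here merges all annotated isoforms of a gene, 1829 bases for NNAT and 18089 for MEG3, so the order rests on that choice. By mean CPM alone MEG3 was higher, at 9022 in HFD and 8661 in RD, against 3307 in HFD and 2017 in RD for NNAT. Next came the non-coding RNA MEG3 at 499 CPM per kb in HFD and 479 in RD, DLK1 at 205 in HFD and 261 in RD, and PEG3 at 178 in HFD and 203 in RD. MEST followed at 138 CPM per kb in HFD and 117 in RD. PEG10 stood at 22.0 CPM per kb in HFD and 60.5 in RD, and PLAGL1 at 51.5 in HFD and 99.8 in RD. At the low end of the tested members were H19 (0.757 CPM per kb in HFD and 2.05 in RD) and USP29 (1.90 in HFD and 2.11 in RD). MEG3 alone held 0.889% to 0.972% of all counts in HFD and 0.841% to 0.853% in RD, and the 34 single-row members together held 1.90% to 2.08% in HFD and 1.77% to 1.93% in RD.

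**Figure D2:**
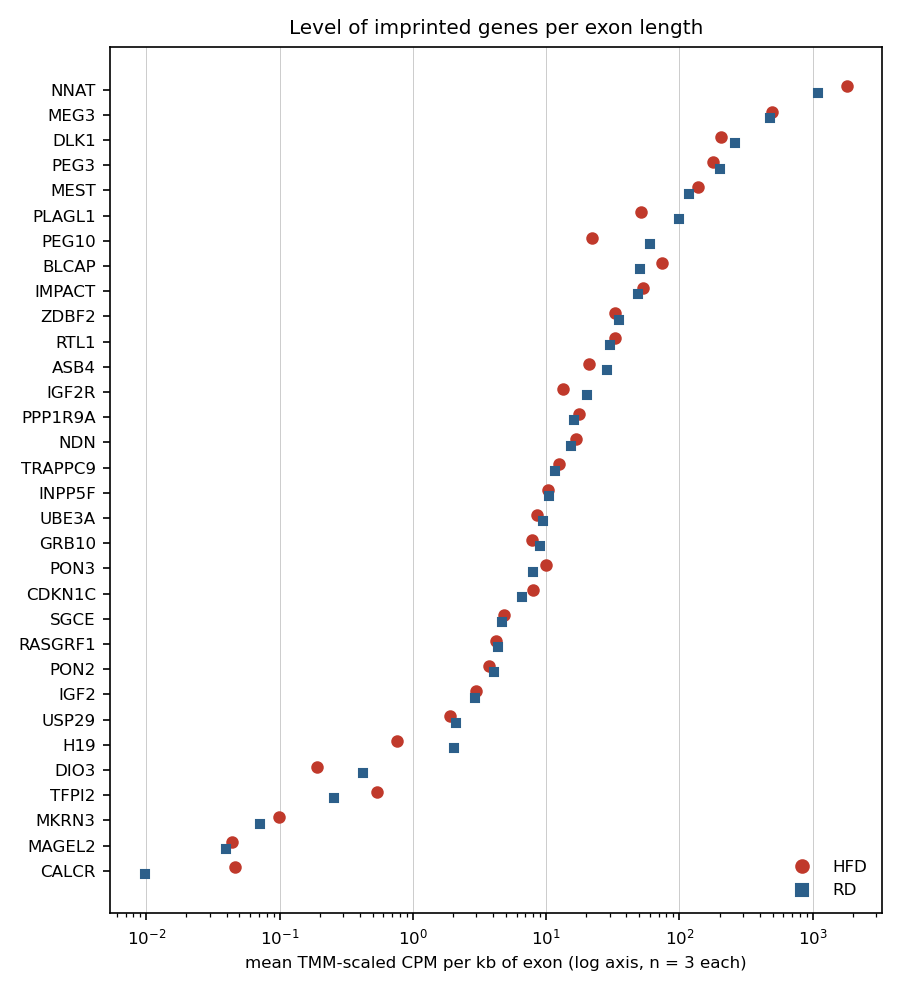
Mean level of imprinted genes per kilobase of exon (TMM-scaled CPM per kb, log axis, n = 3 each), HFD as circles and RD as squares; SNRPN, PHLDA2 and SLC38A4 are not drawn. The genes run from NNAT and MEG3 at the top to genes with a few counts per library at the bottom, and PEG10 and PLAGL1 lie visibly lower in HFD than in RD.

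NNAT and BLCAP, which share a domain on mouse chromosome 2, were both higher in HFD. NNAT encodes neuronatin, a small membrane protein of neuroendocrine cells, and is expressed from the paternal allele. It lies inside an intron of BLCAP, on the opposite strand (NNAT at 157560078 to 157562522, plus strand; BLCAP at 157556362 to 157571274, minus strand, in GRCm38, the mm10 build). NNAT stood at 3551, 3028 and 3343 CPM in HFD replicates 1 to 3, against 2011, 2052 and 1988 CPM in RD replicates 1 to 3. Every HFD library was above every RD library. The mean was 3307 ± 263 CPM in HFD and 2017 ± 32.7 CPM in RD (SD, n = 3 each), a rise of 1.64-fold with a log2 change of 0.71 ± 0.06 (SE, adjusted p = 0.000616).

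BLCAP, a conserved membrane protein gene whose maternal allele predominates in mouse brain, stood at 228, 221 and 223 CPM in HFD and 158, 152 and 150 CPM in RD. It rose 1.46-fold, a log2 change of 0.55 ± 0.06 (adjusted p = 0.00122), again without overlap between the groups. The annotated exons of the pair share 0 bases. Whether strand was used in counting is not given in the sources used here, so reads from unspliced transcripts of either gene could fall to the other. The ratio of NNAT to BLCAP counts within a library was 15.6, 13.7 and 15 in HFD and 12.7, 13.5 and 13.2 in RD. The mean log2 ratio was 0.16 higher in HFD, and the groups lay just apart. By an exact permutation test (two-sided) this gave p = 0.10, the smallest that 3 against 3 libraries allow, and 0.15 after adjustment over the 9 neighbour pairs compared.

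The stretches before the RefSeq starts of NNAT and BLCAP (GRCm38.p6) are shown because these neighbours moved in the same direction and have separate starts. Which starts were used in these libraries was not measured. CpG sites, the bases that carry imprint methylation, are in capitals, and each stretch of 250 bases holds 12 of them. NNAT is at chr2:157559828-157560077, plus strand, and BLCAP at chr2:157566362-157566611, minus strand. The BLCAP stretch lies inside the BLCAP span given above, downstream of the GENCODE start at 157571274.
NNAT: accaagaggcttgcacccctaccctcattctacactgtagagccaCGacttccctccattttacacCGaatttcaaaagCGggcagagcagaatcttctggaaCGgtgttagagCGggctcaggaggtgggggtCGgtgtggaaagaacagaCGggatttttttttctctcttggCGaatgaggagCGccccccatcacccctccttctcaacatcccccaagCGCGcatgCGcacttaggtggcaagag
BLCAP: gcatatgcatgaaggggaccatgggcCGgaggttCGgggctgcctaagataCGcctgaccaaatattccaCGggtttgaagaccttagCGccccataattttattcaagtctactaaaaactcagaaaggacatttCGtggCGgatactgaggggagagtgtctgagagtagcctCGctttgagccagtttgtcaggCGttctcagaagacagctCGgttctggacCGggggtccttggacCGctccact

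PEG10, the retrotransposon-derived gene that names a large domain on chromosome 6, had the largest change of the 7 called members. It encodes gag-like and pol-like proteins needed in the placenta and is expressed from the paternal allele. PEG10 stood at 162, 148 and 131 CPM in HFD replicates 1 to 3, against 322, 433 and 456 CPM in RD replicates 1 to 3. All HFD libraries lay below all RD libraries, and RD replicate 1 was the lowest of its group. The means were 147 ± 15.3 CPM in HFD and 404 ± 71.9 CPM in RD (SD, n = 3 each). PEG10 was 2.75-fold lower in HFD, with a log2 change of -1.46 ± 0.13 (SE) and an adjusted p of 0.000616.

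SGCE, which encodes epsilon-sarcoglycan of the muscle and brain dystrophin complex, was not called, although it is paternally expressed like PEG10. Their start sites lie on opposite strands with 98 bases between them (PEG10 at 4747306 to 4760517, plus strand; SGCE at 4674350 to 4747207, minus strand). SGCE stood at 53.8, 53.2 and 47.7 CPM in HFD and 51.1, 52.0 and 45.6 CPM in RD, with overlap and a log2 change of 0.06 ± 0.09 (adjusted p = 0.73). The ratio of PEG10 to SGCE counts was 3.01, 2.78 and 2.75 in HFD and 6.29, 8.31 and 10 in RD. Within libraries the ratio was thus 0.353 times as high in HFD as in RD (exact permutation p = 0.10, adjusted over the pairs 0.15).

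The members of the domain listed as maternally expressed were mixed. ASB4, a subunit of ubiquitin ligases known from hypothalamic feeding neurons, stood at 83.3, 82.6 and 83.3 CPM in HFD and 109, 119 and 109 CPM in RD. It fell in HFD, with a log2 change of -0.43 ± 0.07 (adjusted p = 0.00582) and no overlap. PON3, a lactonase of the paraoxonase family, stood at 34.5, 34 and 33.2 CPM in HFD and 26.4, 28.5 and 26.4 CPM in RD. It rose by 0.32 ± 0.09 on the log2 scale (adjusted p = 0.0454). That call was lost without any single library (adjusted p from 0.0641 without RD replicate 3 to 0.142 without HFD replicate 2), by DESeq2 (0.0544) and with no filter (0.0555).

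PON2, the neighbouring paraoxonase, was not called (25.5, 30.2 and 26.4 CPM in HFD and 29.2, 29.0 and 30.8 CPM in RD; log2 change -0.12 ± 0.10). The ratio of PON3 to PON2 counts was 1.35, 1.13 and 1.25 in HFD and 0.904, 0.980 and 0.858 in RD. The ratio was higher in every HFD library than in any RD library (exact permutation p = 0.10, adjusted 0.15). PPP1R9A, which encodes the actin-binding scaffold neurabin, had 257 ± 5.60 CPM in HFD and 236 ± 17.2 CPM in RD (log2 change 0.12 ± 0.07, adjusted p = 0.30). The ratio of PPP1R9A to SGCE counts was 4.81, 4.91 and 5.25 in HFD and 4.74, 4.80 and 4.76 in RD. The groups lay just apart, with a difference of 0.06 on the log2 scale (exact permutation p = 0.10, adjusted 0.15). The calcitonin receptor gene CALCR had 2, 4 and 2 counts in HFD and 0, 0 and 2 in RD, and the protease inhibitor gene TFPI2 had 16, 20 and 5 counts in HFD and 2, 8 and 12 in RD. These 2 genes of the domain did not pass the filter.

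**Figure D3:**
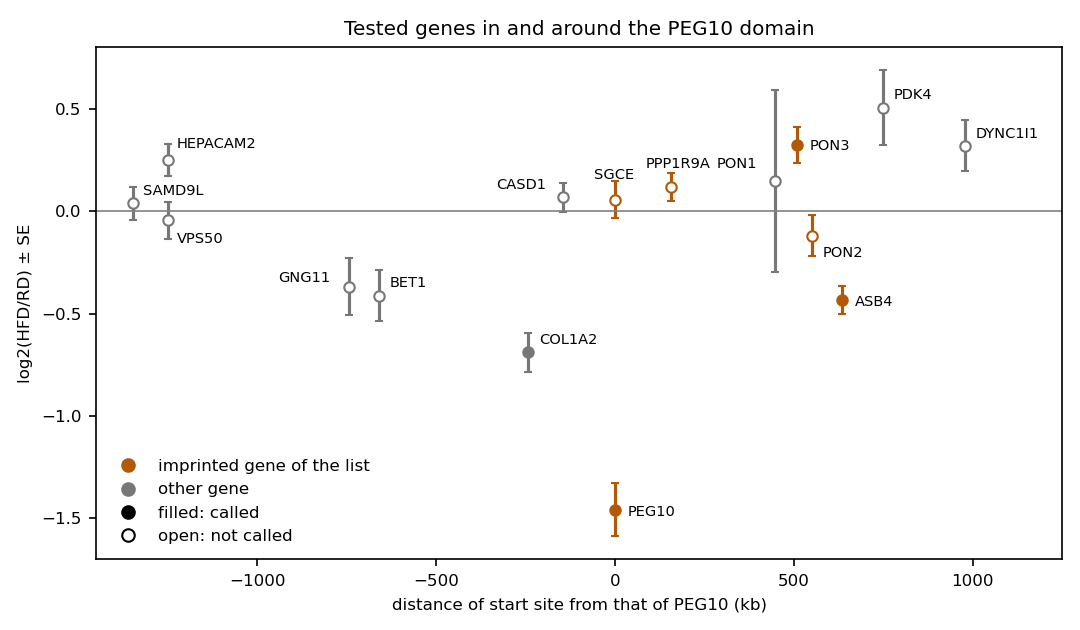
Log2(HFD/RD) with its standard error (edgeR, n = 3 each) of every tested gene in and within 500 kb of the PEG10 domain, against the distance of its start site from that of PEG10 in kb. PEG10 lies at -1.46 next to SGCE at 0.06, with ASB4 and the collagen gene COL1A2 as the other genes called lower and PON3 called higher.

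Among 10 other tested genes within 500 kb of the PEG10 domain, COL1A2 alone was called, at 176 ± 16.3 CPM in HFD and 284 ± 32.7 CPM in RD (log2 change -0.69 ± 0.10, adjusted p = 0.00338). COL1A2 encodes a chain of type I collagen and is also a fibroblast marker. The summed level of 10 fibroblast and pericyte markers was 638 to 760 CPM in HFD and 781 to 842 CPM in RD, and COL1A2 was the 1 of the 10 called. Without COL1A2 the sums overlapped, at 472 to 580 CPM in HFD and 528 to 548 CPM in RD, a comparison chosen after seeing the data. The part of these cells in the PEG10 result was not tested. In bulk tissue, fewer cells of a type and less RNA per cell cannot be told apart. The sequences before the starts of ASB4 and PON3 are shown because these genes, both listed as maternally expressed, moved in opposite directions. They are poorer in CpG sites (capitals) than those of NNAT and BLCAP, with 4 in 250 bases for ASB4 (chr6:5383136-5383385, plus strand) and 3 in 197 bases for PON3 (chr6:5256287-5256483, minus strand). ASB4 has a second RefSeq start that is not shown.
ASB4: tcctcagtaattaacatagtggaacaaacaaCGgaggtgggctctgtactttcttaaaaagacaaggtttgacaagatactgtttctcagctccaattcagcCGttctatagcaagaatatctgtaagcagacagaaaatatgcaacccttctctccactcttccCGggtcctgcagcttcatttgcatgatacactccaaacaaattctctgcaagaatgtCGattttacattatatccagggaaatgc
PON3: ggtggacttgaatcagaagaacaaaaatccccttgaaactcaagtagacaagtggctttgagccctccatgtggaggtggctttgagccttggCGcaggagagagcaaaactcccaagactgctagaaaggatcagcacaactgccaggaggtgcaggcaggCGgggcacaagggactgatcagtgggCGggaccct

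PLAGL1 and IGF2R, each the single listed member of its domain, were lower in HFD. PLAGL1 encodes the zinc finger transcription factor ZAC1, which is expressed from the paternal allele, restrains cell growth and regulates other imprinted genes. PLAGL1 (chromosome 10, 13060504 to 13131694, plus strand) stood at 451, 389 and 368 CPM in HFD replicates 1 to 3, against 577, 751 and 1014 CPM in RD replicates 1 to 3. The groups did not overlap, but the RD libraries were widely spread. The means were 403 ± 43.4 CPM in HFD and 780 ± 220 CPM in RD (SD, n = 3 each). PLAGL1 fell by 0.95 ± 0.17 on the log2 scale (adjusted p = 0.00867). It missed the threshold when HFD replicate 2 (adjusted p = 0.0507) or HFD replicate 3 (0.0582) was left out.

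IGF2R encodes the receptor that carries mannose-6-phosphate-tagged enzymes to lysosomes and clears IGF2, and in most mouse tissues it is expressed from the maternal allele. IGF2R (chromosome 17, 12682406 to 12769664, minus strand) stood at 121, 137 and 113 CPM in HFD and 169, 194 and 204 CPM in RD. Its log2 change was -0.61 ± 0.09 (adjusted p = 0.00463), with no overlap. AIRN, the paternally expressed antisense RNA that starts within IGF2R and silences it in cis, was lower as well, at 17.5, 19.3 and 16.4 CPM in HFD and 29.4, 27.6 and 31.5 CPM in RD (log2 change -0.73 ± 0.11, adjusted p = 0.00438). The annotated exons of IGF2R and AIRN share 0 bases. Without strand, however, unspliced reads of this pair cannot be told apart.

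The stretches before the RefSeq starts of PLAGL1 and IGF2R are shown as the richest in CpG sites (capitals) among called members with a promoter sequence, which PEG10 lacked. PLAGL1 has 15 in 206 bases (chr10:13090582-13090787, plus strand) and IGF2R has 27 in 250 bases (chr17:12769707-12769956, minus strand). The PLAGL1 stretch lies inside the gene span given above. PLAGL1 is known to bind the motif GGGGCCCC, which reads the same on both strands. In RefSeq windows of 250 bases before to 50 after each start, it was found in 4 of 43 windows of members (1 each of PEG3, USP29, PPP1R9A and RASGRF1) and in 1.08% of all 32851 windows. The windows of PEG3 and USP29 overlap, and none of these 4 genes was called. The motif is all G and C, and the windows compared were not matched for base content. These windows hold 13 (PEG3), 17 (USP29), 48 (PPP1R9A) and 26 (RASGRF1) CpG sites, against a median of 7 over all windows.
PLAGL1: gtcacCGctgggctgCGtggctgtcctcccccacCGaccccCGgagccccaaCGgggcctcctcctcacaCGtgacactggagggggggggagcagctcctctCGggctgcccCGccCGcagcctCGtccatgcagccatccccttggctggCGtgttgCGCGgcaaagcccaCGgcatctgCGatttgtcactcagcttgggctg
IGF2R: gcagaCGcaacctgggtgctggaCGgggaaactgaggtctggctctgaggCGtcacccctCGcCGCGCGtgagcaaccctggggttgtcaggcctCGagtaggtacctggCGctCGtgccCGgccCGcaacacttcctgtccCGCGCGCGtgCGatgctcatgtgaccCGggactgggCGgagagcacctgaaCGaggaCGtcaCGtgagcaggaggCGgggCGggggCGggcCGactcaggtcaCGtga

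**Figure D4:**
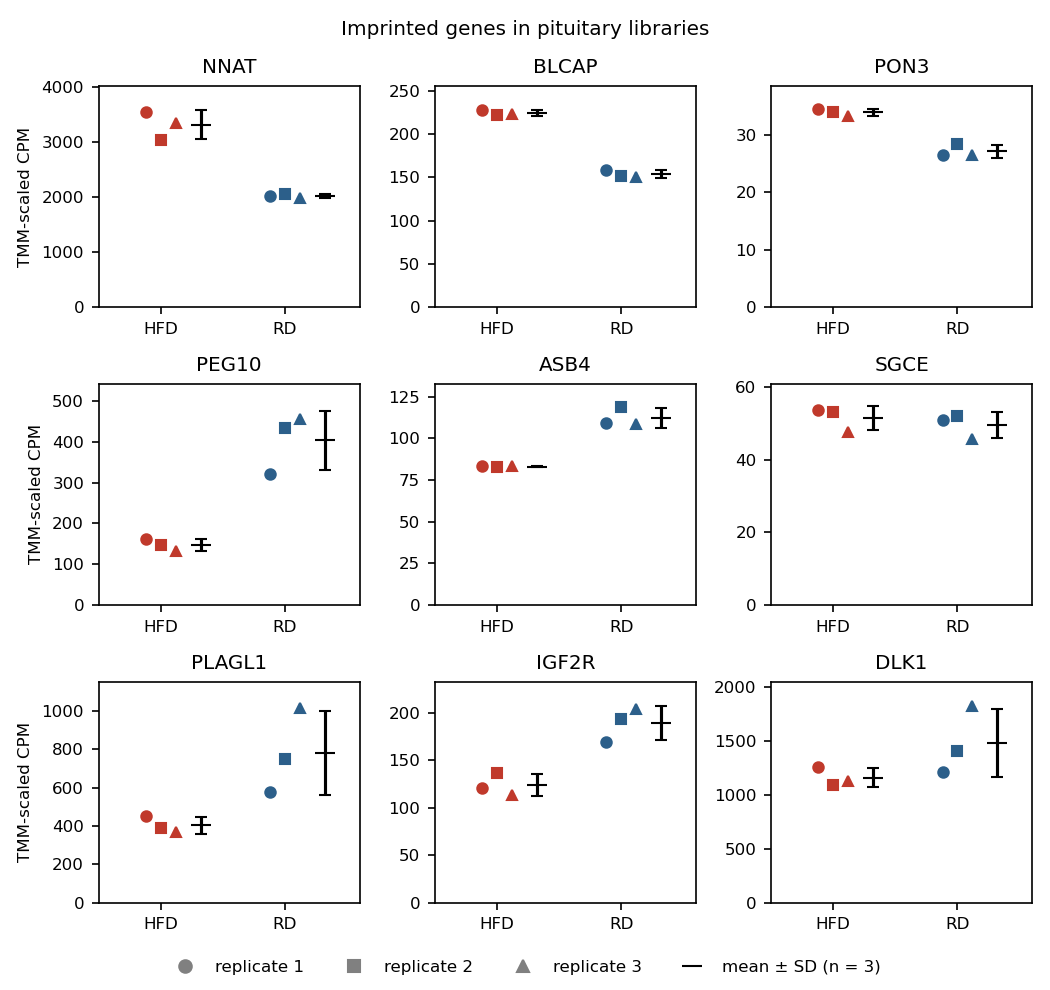
TMM-scaled CPM of 9 imprinted genes in each library, HFD left and RD right, with the mean and SD (n = 3 each) beside the points; marker shape gives the replicate number. NNAT, BLCAP and PON3 are higher and PEG10, ASB4, PLAGL1 and IGF2R lower in all HFD libraries, while SGCE overlaps, and the RD points of PLAGL1 and DLK1 spread widely with RD replicate 3 at the top.

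The DLK1-MEG3 domain on chromosome 12 held abundant members, none of them called. DLK1 encodes a transmembrane relative of Notch ligands that is found in endocrine cells and is expressed from the paternal allele. It stood at 1254, 1092 and 1132 CPM in HFD and 1212, 1401 and 1824 CPM in RD. The groups overlapped, since HFD replicate 1 was above RD replicate 1, and the log2 change of -0.35 ± 0.13 was not called (adjusted p = 0.108). It was called without RD replicate 1 (adjusted p = 0.0211) and by DESeq2 (0.0364), while without RD replicate 3 its log2 change was -0.18 (0.173). MEG3, the maternally expressed non-coding RNA of the domain, was not called, at 9562, 8685 and 8818 CPM in HFD and 8447, 8611 and 8924 CPM in RD (log2 change 0.06 ± 0.05, adjusted p = 0.49).

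The ratio of DLK1 to MEG3 counts was 0.131, 0.126 and 0.128 in HFD and 0.144, 0.163 and 0.204 in RD. Within libraries the ratio was lower in every HFD library than in any RD library, by 0.39 on the log2 scale (exact permutation p = 0.10, adjusted 0.15). Without RD replicate 3, HFD minus RD was -0.25 on that scale, against -0.39 with it. RTL1, a paternally expressed gene of retrotransposon origin, had 208 ± 26.2 CPM in HFD and 192 ± 37.0 CPM in RD and was not called (log2 change 0.12 ± 0.13, adjusted p = 0.62). Its exons are overlapped by microRNA genes on the opposite strand. Since use of strand is not given, RTL1 counts and the RTL1 to MEG3 ratio could include reads from that strand. The ratio of RTL1 to MEG3 overlapped between the groups (exact permutation p = 0.80). DIO3, the deiodinase that inactivates thyroid hormone, had 5, 4 and 8 counts in HFD and 6, 16 and 20 counts in RD and did not pass the filter.

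**Figure D5:**
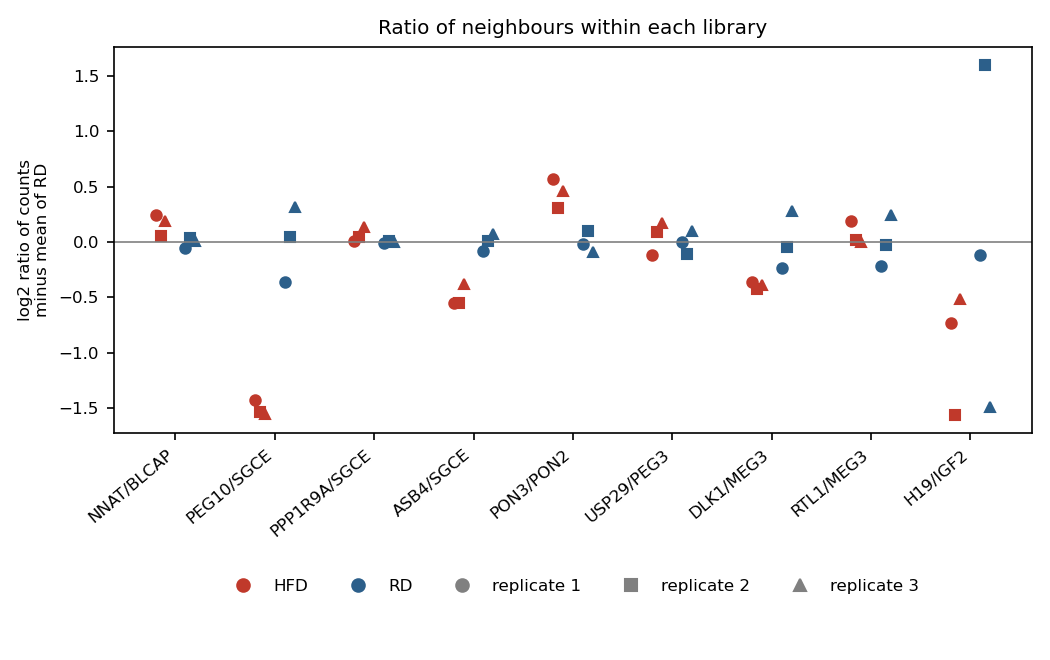
Log2 ratio of the counts of 2 neighbours in each library, minus the mean of RD, for the 9 pairs with both genes tested; red points are HFD, blue points RD, and marker shape gives the replicate number. The PEG10/SGCE, ASB4/SGCE and DLK1/MEG3 ratios lie lower and the PON3/PON2 ratios higher in all HFD libraries, NNAT/BLCAP and PPP1R9A/SGCE lie higher in HFD by a small margin, and USP29/PEG3, RTL1/MEG3 and H19/IGF2 overlap.

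PEG3 and USP29 on chromosome 7 start on opposite strands with 146 bases between their starts, and both are paternally expressed. PEG3, a zinc finger transcription factor of brain and endocrine tissue, stood at 2518, 2373 and 2228 CPM in HFD and 2555, 2625 and 2951 CPM in RD. The groups did not overlap, by a small margin, and the log2 change of -0.19 ± 0.07 was not called (adjusted p = 0.11). USP29, a ubiquitin-specific protease gene, had 34.3 ± 1.54 CPM in HFD and 38.2 ± 5.43 CPM in RD (log2 change -0.15 ± 0.11, adjusted p = 0.42). The log2 ratio of USP29 to PEG3 differed between the groups by 0.05 and overlapped (exact permutation p = 0.80).

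The H19-IGF2 domain was weakly expressed. IGF2, the fetal growth factor expressed from the paternal allele, stood at 11.8, 17.6 and 22.0 CPM in HFD and 16.5, 18.4 and 15 CPM in RD, with overlap and a log2 change of 0.05 ± 0.20. An overlapping gene model on the same strand covers 62.8% of the exon bases of IGF2, so its count is uncertain. H19, the maternally expressed non-coding RNA of the domain, had 20, 17 and 45 counts in HFD and 49, 170 and 18 counts in RD. RD replicate 2 held most of them, and the log2 change of -1.42 ± 0.72 was not called (adjusted p = 0.25). Without RD replicate 3 it was called (log2 change -1.91, adjusted p = 0.0465), and over the fits tried it ranged from -1.97 to -0.11.

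CDKN1C, the maternally expressed cell cycle inhibitor p57, had 16.3 ± 2.49 CPM in HFD and 13.4 ± 2.0 CPM in RD (log2 change 0.28 ± 0.16, adjusted p = 0.29). An antisense gene model overlaps 30.7% of its exon bases. Its neighbour PHLDA2, a placental growth regulator, had 0 counts in all HFD libraries and 4, 1 and 0 counts in RD.

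Members of the Prader-Willi and Angelman domain on chromosome 7 were not called. NDN, the necdin gene expressed from the paternal allele, stood at 67.4, 48.0 and 71.1 CPM in HFD and 63.1, 55.3 and 51.3 CPM in RD (log2 change 0.14 ± 0.14, adjusted p = 0.59). UBE3A, a ubiquitin ligase gene that is maternally expressed in neurons, stood at 177, 184 and 167 CPM in HFD and 190, 193 and 208 CPM in RD. These UBE3A levels did not overlap, but the log2 change of -0.16 ± 0.07 missed the threshold (adjusted p = 0.16). SNHG14, its antisense transcript, shares 8.74% of its exon bases. MAGEL2 had 0, 1 and 8 counts in HFD and 1, 3 and 5 in RD, and MKRN3, a gene that restrains the onset of puberty, had 5, 4 and 2 counts in HFD and 0, 3 and 6 in RD.

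SNRPN, a spliceosomal protein gene, was listed at 0 in all 6 libraries. If counts are of single reads, a count of 0 allows up to 3 counts, or 0.203 to 0.208 CPM in HFD and 0.173 to 0.195 CPM in RD, counting error only. SNURF, whose annotated exons share 216 bases with those of SNRPN on the same strand, was also at 0 throughout. Another gene model on the same strand, which has no row, shares 589 bases, or 27.3% of the exon bases of SNRPN. The limit for a count of 0 does not cover reads lost to such overlaps. The part of these overlaps in the zero counts was not tested.

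Of the remaining single-gene domains, none was called. MEST, an alpha/beta hydrolase gene expressed from the paternal allele, had 543 ± 38.1 CPM in HFD and 463 ± 74.0 CPM in RD (log2 change 0.23 ± 0.11, adjusted p = 0.21). COPG2 on the opposite strand shares 23.1% of the exon bases of MEST and had a log2 change of 0.21 ± 0.08 (adjusted p = 0.14). ZDBF2, a paternally expressed zinc finger gene linked to growth, stood at 457, 412 and 381 CPM in HFD and 337, 351 and 660 CPM in RD. Its direction rested on RD replicate 3: the log2 change was -0.11 ± 0.22 with that library and 0.27 without it, where ZDBF2 was called (adjusted p = 0.0450).

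GRB10, which encodes an adaptor that damps insulin and IGF receptor signals, stood at 85.2, 67.5 and 61.4 CPM in HFD and 60.7, 86.4 and 98.4 CPM in RD (log2 change -0.20 ± 0.17). IMPACT, an inhibitor of the amino acid sensor kinase GCN2, had 275 ± 3.59 CPM in HFD and 253 ± 7.17 CPM in RD. The groups did not overlap, and the log2 change of 0.12 ± 0.06 was not called (adjusted p = 0.21). TRAPPC9, a trafficking complex subunit gene, had 99.5 ± 3.69 CPM in HFD and 92.9 ± 2.13 CPM in RD (log2 change 0.10 ± 0.07). INPP5F, an inositol phosphatase gene of which a brain variant is imprinted, had 86.2 ± 6.38 CPM in HFD and 87.1 ± 18.2 CPM in RD. RASGRF1, a Ras exchange factor gene linked to growth, had 46.9 ± 4.80 CPM in HFD and 48.3 ± 1.80 CPM in RD (log2 change -0.04 ± 0.09).

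SLC38A4, an amino acid transporter gene, stood on 2 rows of the table, and which of them is the mouse gene cannot be settled from the table. The first row had 9, 10 and 10 counts in HFD and 10, 10 and 10 in RD. The second had 13, 10 and 15 counts in HFD and 4, 8 and 4 in RD and was not called (log2 change 1.38 ± 0.49, adjusted p = 0.11). SLC38A4 was left out of all counts of members.

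Parental allele is as listed from background and was not measured here. By it, called members fell on each side in each direction, beside 5.87% of all tested genes called higher and 4.61% lower. Of 15 tested paternally expressed members, 1 was called higher (NNAT) and 2 lower (PEG10 and PLAGL1), with a median log2 change of -0.017. Of 12 tested maternally expressed members, 2 were called higher (BLCAP and PON3) and 2 lower (ASB4 and IGF2R), with a median of -0.030. No test was made of the difference.

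The members also varied within a group. The coefficient of variation between libraries had a median of 7.40% in HFD and 9.51% in RD over the 27 tested members, against 7.76% in HFD and 10.4% in RD over all tested genes. It was smallest for ASB4 in HFD (0.517%) and for NNAT in RD (1.62%), and largest for H19 in each group (55.3% in HFD and 106% in RD). RD replicate 3 was the highest RD library for 14 of the 27 members, among them PLAGL1, DLK1, ZDBF2, RTL1 and GRB10, and for 39.0% of all tested genes. In the HFD group, replicate 1 was the highest library for 13 of the 27 members and for 35.8% of all tested genes.

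A list of 31 other tested imprinted genes was set beside the members. Of these, AIRN was called lower and SFMBT2 higher, and 29 were not called, a share of 6.45% called, against 10.5% of all tested genes. SFMBT2, a polycomb-related gene imprinted in the placenta, had 15.6 ± 1.63 CPM in HFD and 8.92 ± 1.69 CPM in RD (log2 change 0.80 ± 0.17, adjusted p = 0.0169). It was not called without HFD replicate 2 (0.0608) or HFD replicate 3 (0.0888), while AIRN was called in all 16 other fits. Without RD replicate 1, 5 of the list were called. The median log2 change of the list was 0.087. Of 14 tested genes known as a network of co-expressed imprinted genes, which shares members with both lists, 0 were called higher and 2 lower (PLAGL1 and IGF2R). GNAS, which encodes the stimulatory G protein alpha subunit (0.02 ± 0.04), and KCNQ1OT1, the non-coding RNA of the CDKN1C domain (-0.06 ± 0.06), were abundant and not called.

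Calls around the domains were spread over many of them. Of 155 tested genes within 500 kb of a domain that are not members, 5 were called higher and 7 lower, or 7.74%, against 10.5% of all tested genes. The DLK1-MEG3 surroundings gave 34 of the 155, of which 1 was called. Most of these 34 were microRNA genes at low counts, none of them called, which lowers the share. Beside COL1A2 and AIRN, the calls were VSTM2L near NNAT, KLHDC10 near MEST, HSP90AA1 in the DLK1-MEG3 surroundings, SHANK2 near CDKN1C, UTRN and FUCA2 near PLAGL1, TCP1 near IGF2R, NRP2 and ADAM23 near ZDBF2, and TTC39C near IMPACT.

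Marker sums of other cell types were compared as well. The sums of endothelial markers (430 to 477 CPM in HFD and 437 to 448 CPM in RD), melanotroph markers (420 to 777 in HFD and 484 to 694 in RD), pituicyte markers (190 to 400 in HFD and 275 to 411 in RD), hypothalamic neuron markers (318 to 337 in HFD and 306 to 330 in RD) and immune markers (48.0 to 57.7 in HFD and 44.9 to 58.6 in RD) overlapped. SNAP25 made up most of the hypothalamic neuron sum (273 to 294 CPM in HFD and 271 to 277 CPM in RD). The overlap of that sum therefore says little about the other markers of its list. No marker of these lists was at 0 in all libraries. Their part in the changes of imprinted genes was not tested.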

How the data were processed

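Bulk RNA-seq counts of 6 mouse pituitary libraries were used. The values are whole-number read counts per gene as deposited, with no normalization, and the submitters' processing notes name the build mm10. The aligner, counting tool, annotation and use of strand were named by no label or header and stand as not given in the sources used here. Members, the other lists and the neighbour pairs were chosen with earlier results of these data known. Genes were named by rule if they were members, or other imprinted genes or genes within 500 kb of a domain past the threshold. GNAS, KCNQ1OT1, COPG2, SNHG14, SNURF, SNAP25 and the hormone and subunit genes lie outside this rule and were named after their values were seen.

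The test was the quasi-likelihood test of edgeR 4.0.16 (R 4.3.3, TMM scaling, a filter with minimum count 10 and minimum total 15, diet as the term), two-sided, with Benjamini-Hochberg adjustment over all 13873 tested genes and a threshold of 0.05. Standard errors were derived from the log2 change and its F statistic. Levels are TMM-scaled CPM, and exon lengths are of the merged exons of all annotated isoforms of a gene. Neighbour ratios are log2 ratios of counts plus 0.5, tested by exact permutation. The fits were tested on simulated data. Among counts of 1 to 10, 64.0% to 67.0% were even, against 48.9% to 50.4% above 200, so counts may be of read mates and no counting interval is given beyond the limit for a count of 0, which assumes single reads. Alternatives were other scalings and filters, DESeq2 1.42.0, limma-voom (limma 3.58.1), a replicate block and each library left out. Halved counts and scaling without the hormone genes were chosen after seeing the data. Positions are from GENCODE M21 and promoter sequences from RefSeq (GRCm38.p6), where 27 of 34 members had a window (not PEG10, SGCE, CDKN1C, H19, RTL1, IMPACT and TRAPPC9). Printed stretches leave out transcribed bases annotated as untranslated. The stem and folliculostellate marker list is not reported here. The alternative planned for normalized values was not run, since the table holds counts.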

Additional observations from a re-analysis of the deposited data

How the results depend on the processing

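Calls of NNAT, BLCAP, PEG10, ASB4 and IGF2R held in all 16 alternatives, with log2 changes of 0.66 to 0.78, 0.53 to 0.61, -1.61 to -1.37, -0.46 to -0.37 and -0.69 to -0.54. PLAGL1 was called in 14 and PON3 in 7. Over all alternatives and tested members, 405 values kept their direction and their side of the threshold, 11 lost the threshold, 3 passed it anew with the same sign and 12 changed sign. Of those 12, 1 passed the threshold (ZDBF2 without RD replicate 3), and none belonged to the 7 called members. The sign changes by setting were INPP5F with upper quartile scaling (0.017), INPP5F with library size only (0.054), RASGRF1 with library size only (0.026) and INPP5F with the replicate block (4.6e-05). With a library left out, values ranged from -0.18 to 0.25 for IGF2, from -0.12 to 0.16 for INPP5F, from -0.10 to 0.037 for RASGRF1, from -0.011 to 0.27 for RTL1, from -0.0049 to 0.11 for SGCE and from -0.29 to 0.27 for ZDBF2. The USP29 to PEG3 ratio ranged from -0.016 to 0.13 and the RTL1 to MEG3 ratio from -0.040 to 0.19.

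All called genes numbered 1453, against 808 with the replicate block and 431 to 1523 with a library left out. Called members numbered 5 to 8 with a library left out, and other imprinted genes 1 to 5. Numbers pair the libraries in name only (correlations of -0.13, 0.0037 and -0.097 between same-numbered libraries), and with the replicate block 6 members were called, PON3 being lost. The causes were not tested. CALCR, TFPI2, DIO3, PHLDA2, MAGEL2 and MKRN3 had at most 20 counts in a library, and no difference was tested in them.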
